A study of Mus musculus with 10 samples.

Results

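The vesicle trafficking and V-ATPase genes were the 146 genes, of 8590 in a table of RNA metabolic rates, whose symbols begin with the family names Vps, Atp6a or Atp6v, Snx, Stx, Vamp, Ap1 to Ap4, Trappc, Cop, Sec, Exoc or Syt followed by the letters or digits of a family member. The rule read symbols and no measured value, but it was set with earlier results of these data known. The choice by symbol has a cost: Vps72, for example, encodes a subunit of chromatin remodelling complexes and not a trafficking protein, and it is kept here because it matches. By family they were 25 sorting nexins, 14 adaptor complex subunits (AP-1 to AP-4), 14 TRAPP subunits, 10 COPII genes, 10 syntaxins and 9 exocyst subunits. There were also 8 ESCRT genes, 8 synaptotagmins, 8 V-ATPase genes, 7 COPI subunits, 7 other Vps genes and 6 genes of the translocon and signal peptidase. Another 6 were grouped here under the HOPS and CORVET tethers, with Vps33b placed among them by its name. The rest were 4 retromer core subunits, 3 VAMPs, 3 subunits of the GARP and EARP tethers, 2 Sec22 SNAREs and 2 other Sec genes.

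Neurons move membrane proteins, neuropeptides and synaptic vesicle components over long distances, and these families are the machinery that does so. Coat complexes (COPII, COPI and the adaptors) bud vesicles from the endoplasmic reticulum, Golgi and endosomes, tethers (TRAPP, exocyst, HOPS, GARP) hold them at the target membrane, and SNAREs (syntaxins, VAMPs, Sec22) fuse them, with synaptotagmins acting as calcium sensors in many fusion steps. Retromer and sorting nexins return cargo from endosomes, ESCRT complexes form multivesicular bodies, and the V-ATPase, a proton pump with a membrane V0 sector and a catalytic V1 sector, acidifies lysosomes, endosomes and synaptic vesicles.

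The study compared cortical neurons of wild-type mice with neurons of mice carrying an Fmr1 knockout. Fmr1 encodes FMRP, the RNA-binding protein lost in fragile X syndrome. Both genotypes carry the strain label FVB.129P2-Pde6b+ Tyrc-ch/AntJ, and both came from cortices of embryonic day 18 grown for 14 days in vitro, so every group was a primary culture of dissociated cells rather than tissue. Cultures were given 5-ethynyluridine (5-EU, at 200 µM) for 20 or 60 min, which new transcripts take up in place of uridine, and the transcripts that held it were pulled down and sequenced. Of 10 libraries in the series, the 4 labelled ones carried rates, 1 wild-type and 1 knockout library at each labelling time, so n = 2 per genotype throughout and the replicates of a genotype differ in labelling time. No label says whether the libraries of a genotype came from separate cultures or animals, so p-values measure only the spread between these libraries. Each gene had a synthesis rate, a processing rate (intron removal) and a degradation rate, in linear units whose time base is not given in the sources used here, and the depth behind a rate is unknown.

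Fmr1 had degradation rates of 0.0774 and 0.0672 in wild type at 20 and 60 min and of 2.58 and 2.66 in the knockout, and its synthesis rates were 0.810 and 0.692 against 2.06 and 1.56. The median degradation rate over all genes was 0.111 in each wild-type library and 0.190 and 0.195 in the knockout libraries. Of the marker genes for neurons, 4 of 10 were listed, and their summed synthesis rate was 5.34 and 3.17 in wild-type libraries, and 2.15 and 0.844 in knockout libraries, where only Rbfox3 had a rate. For astrocytes 3 of 7 were listed, with sums of 2.55 and 1.64 in wild-type libraries, and 16.8 and 17.95 in knockout libraries, most of the latter from Sox9, which had no rate in wild type. The 5 of 8 listed markers of the oligodendrocyte lineage summed to 21.5 and 15.5 in wild-type libraries, and 20.2 and 14.9 in knockout libraries. Most of each sum was Olig2, the only one of the 5 with a rate in the 20 min knockout library. Of the markers of microglia (6 genes) and of endothelial cells and fibroblasts (5 genes), 0 were listed. The part of these differences in the results below was not tested. The libraries are bulk RNA, so fewer cells of a type and less RNA per cell cannot be told apart.

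In wild-type neurons most transcripts of these families were degraded more slowly than the typical transcript. A wild-type degradation rate at both labelling times was available for 144 members, all except Snx5 and Trappc2. Their median rate, over the geometric means of the labelling times, was 0.0785, against 0.110 over 7914 genes, and 103 of the 144 (71.5%) lay under the median of all genes. At the slow end, 20 members lay under the 10th percentile of all genes (0.0468), and at the fast end 4 lay above the 90th percentile (0.320). These are levels in a group chosen by name and carry no test.

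The families spanned a wide range of wild-type degradation rates. COPI subunits, which coat vesicles returning from the Golgi to the endoplasmic reticulum, had a median of 0.0502 (range 0.0322 to 0.104), and all 7 lay under the median of all genes. The 5 V1 sector genes of the V-ATPase lay close together, from 0.0510 to 0.0779 with a median of 0.0569, and the accessory subunit Atp6ap2, also known as the prorenin receptor, was at 0.0471. Medians were 0.0572 for the HOPS and CORVET group (Vps33b included), 0.0640 for adaptor subunits and 0.0685 for syntaxins. Genes of the translocon and signal peptidase, which move and trim proteins entering the endoplasmic reticulum, had the highest median of the families with more than 3 members, 0.143 (0.113 to 0.291), followed by the ESCRT genes at 0.117. The ESCRT genes themselves ran from 0.0272 for Vps28 to 0.270 for Vps37b.

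**Figure D1:**
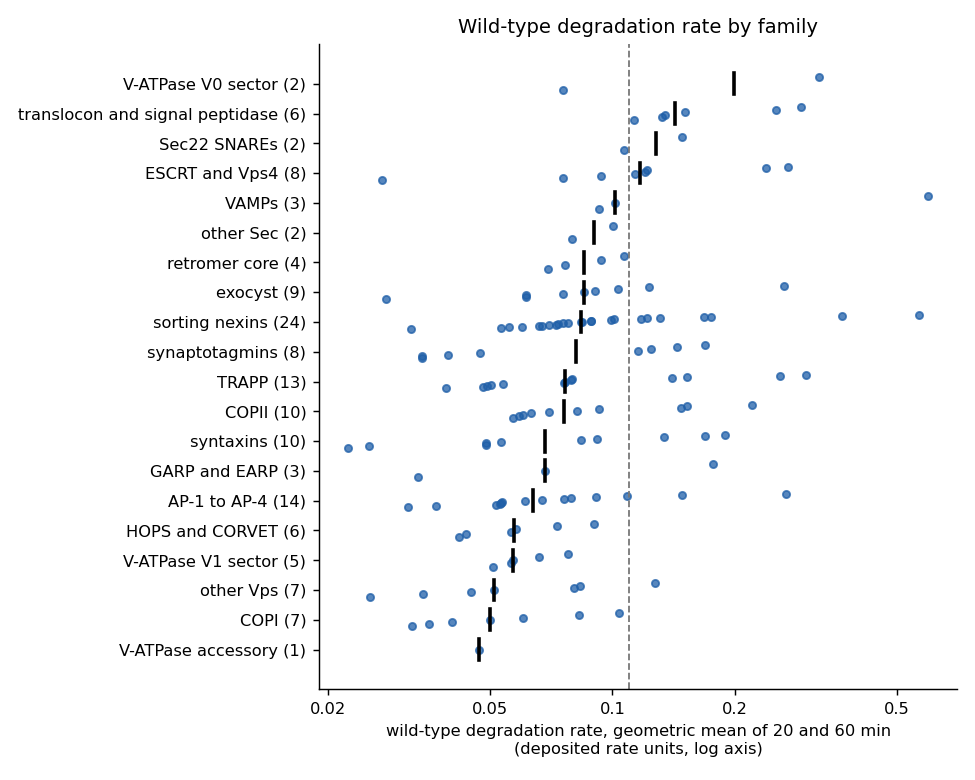
Wild-type degradation rate (geometric mean of the 20 and 60 min libraries, deposited rate units, log axis) for each member (blue point), by family, with the number of members in parentheses; black bars mark family medians and the dashed line the median of all genes (0.110). COPI (median 0.0502) and the V1 sector (0.0569) sit to the left of that line, and the translocon and signal peptidase genes (0.143) to the right.

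Among single members, Vamp3, the VAMP of recycling endosomes (cellubrevin), was the fastest degraded in wild type, at 0.484 and 0.736 at 20 and 60 min. Snx18, a sorting nexin with a membrane-bending BAR domain, followed at 0.441 and 0.727, and it also had the highest synthesis rate of all members, 4.82 and 7.94. Snx7 (0.428 and 0.313), the V0 subunit gene Atp6v0e (0.364 and 0.285) and the TRAPP core gene Trappc5 (0.325 and 0.276) completed the 5 fastest. The slowest was Stx1a, a plasma membrane SNARE of synaptic vesicle release, at 0.0441 and 0.0114, and it was made at 2.87 and 0.739. Stx4a (0.0164 and 0.0391), Vps9d1 (0.0402 and 0.0161), the ESCRT-I subunit gene Vps28 (0.0425 and 0.0175) and the exocyst gene Exoc7 (0.0580 and 0.0133) were the next slowest. For the slow members the libraries of the same genotype differed by 2-fold or more, which is wider than the gaps between them, so their order is not resolved, whereas the rates of the 5 fastest and the 5 slowest did not overlap. Vamp3 lies within the span of Camta1 on the same strand and Vps28 overlaps Tonsl, so reads from these pairs may be shared.

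Synthesis and processing placed other members at the ends. The median synthesis rate of the members in wild type was 0.957, near the 1.03 of all genes. After Snx18, the most strongly synthesised were the ESCRT-I gene Vps37b (3.17 and 6.41), the TRAPP gene Trappc4 (3.99 and 4.35), Syt4, a synaptotagmin of dense-core vesicles (3.09 and 5.07), and Sec14l1 (2.99 and 3.88). At the low end Stx4a was at 0.113 and 0.269, Vps13a, a lipid transfer protein gene, at 0.248 and 0.158, and the AP-4 genes Ap4m1 and Ap4s1 at 0.269 and 0.191 and at 0.254 and 0.220, with Snx24 at 0.163 and 0.400. Processing was somewhat faster than in the whole table, with a median of 8.46 over 135 members against 7.26, and 77 of the 135 lay above the median of all genes. Sec23ip, a partner of the COPII coat, was processed fastest (26.5 and 74.0), with Vps33b (35.9 and 24.8), the COPI gene Copb2 (27.4 and 32.5), the translocon gene Sec61b (42.9 and 18.5) and Sec22b (22.4 and 26.6) after it. The slowest were Trappc6a (2.11 and 0.246), Snx12 (0.869 and 1.04), the COPII cargo adaptor gene Sec24a (0.725 and 1.34), Vps13c (2.17 and 0.620) and Snx32 (3.23 and 0.546). Exoc8 has 1 exon in the annotation and had no processing rate in any of the 4 libraries.

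Labelling time moved synthesis and degradation together in wild type. In 136 of 144 members the ratio of synthesis to degradation rate, which is the RNA level that the rates imply, was equal at both times within 0.001 on the log2 scale, so the wild-type degradation rates at 20 and 60 min rest on 1 RNA level and are not independent estimates. In the knockout this held for 0 of 100 members, and the median gap between the times was 0.25 on the log2 scale. Over all genes the counts were 7389 of 7914 and 16 of 5901.

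What the fast and slow members share was examined in the annotation. Pentamers ATTTA, the core of AU-rich elements that destabilise many mRNAs, were counted in the 3′ UTR of each member. The 48 members with the highest wild-type degradation rates had a median of 3 such pentamers and 9 of them had none, whereas the 48 with the lowest had a median of 1 and 17 of them had none. The Spearman rho between count and degradation rate was 0.32 over 144 members and 0.22 over 7682 genes. Pentamers per kilobase, which removes 3′ UTR length, were taken only for 3′ UTRs of at least 100 nt. Their rho was 0.20 over 137 members and 0.18 over 7231 genes. GC content went the other way, with rho of -0.28 among members and -0.27 in all genes. Snx18 carried 7 pentamers in a 3′ UTR of 2430 nt and Snx7 carried 4 in 652 nt, but Atp6v0e, also among the fastest, had 0 in 64 nt. At the slow end Stx1a and Exoc7 had 0 in 1196 and 1182 nt. The points share libraries and base composition, so these correlations are descriptions. The number of exons went with slower degradation in all genes (rho -0.42) and less so among the members (-0.22).

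The promoters were read because lysosomal genes are known for a shared regulatory element, the CLEAR box bound by TFEB and its relatives, whose core is TCACGTGA. This palindrome reads the same on both strands. RefSeq promoters on GRCm38.p6, from 250 bases before to 50 after a start, were available for 111 members with 132 starts. The motif was present in 8 of the 132 (6.06%), against 1.93% of promoters of genes in the rate table and 0.974% of all promoters. For the E-box core CACGTG, which TCACGTGA contains, the shares were 17.4%, 10.4% and 7.15%. The genes were Atp6v0e, the syntaxin gene Stx6, the COPII partner Sec23ip, the translocon gene Sec62, the HOPS genes Vps16 and Vps33a, and the retromer gene Vps26a, which has it at 2 starts. A match describes letters in a window and not a bound site. The windows around the motif are shown, on the gene's strand, since they are what these genes of different complexes have in common, with the motif in capitals, up to 20 bases on each side and cut at the start site or, for Atp6v0e, at the end of the motif.
Atp6v0e, chr17:26676378-26676405, plus: gcggggctttagcgcgccgaTCACGTGA
Stx6, chr1:155158597-155158644, plus: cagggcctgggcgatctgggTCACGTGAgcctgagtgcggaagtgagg
Sec23ip, chr7:128744796-128744843, plus: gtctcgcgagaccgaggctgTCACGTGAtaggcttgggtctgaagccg
Sec62, chr3:30792823-30792870, plus: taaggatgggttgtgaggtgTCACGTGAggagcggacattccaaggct
Vps16, chr2:130424281-130424319, plus: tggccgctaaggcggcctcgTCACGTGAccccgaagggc
Vps33a, chr5:123573017-123573064, minus: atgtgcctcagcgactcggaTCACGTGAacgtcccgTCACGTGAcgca
Vps26a, chr10:62486723-62486770, minus: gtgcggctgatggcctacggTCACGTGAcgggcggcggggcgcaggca
Vps26a, chr10:62486961-62487008, minus: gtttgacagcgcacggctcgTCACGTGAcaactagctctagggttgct

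The Vps33a window holds 2 copies. In Sec62 and Sec23ip the motif starts 33 and 54 bases before the start, in Stx6 86 and in Vps16 19, and in Atp6v0e it starts at base 3 after it. The median wild-type synthesis rate was 1.29 (range 0.398 to 2.66) for the 7 genes with the motif and 0.951 (0.174 to 6.19) for the 102 with a promoter, a rate and no motif. These ranges overlap.

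Many members had no degradation rate in either knockout library. Of the 144 with rates in wild type, 30 (20.8%) had none in the knockout, a share near the 19.5% of all genes. They included Atp6ap2, Atp6v0a2 and Atp6v1h of the V-ATPase, the COPI genes Copb2 and Copz1, the exocyst genes Exoc2, Exoc3 and Exoc6, the SNARE genes Sec22b, Stx6, Stx7, Stx16 and Stx17, Syt4, and the sorting nexins Snx1, Snx4, Snx7, Snx10, Snx15 and Snx17. A further 13 had a rate in only 1 knockout library, 10 at 20 min and 3 at 60 min, and 12 of these 13 lay below wild type at that time, among them Stx1a (0.0261 at 20 min against 0.0441) and Trappc5 (0.0713 against 0.325). Over all genes the share was 95.2% (621 of 652). A change could therefore be tested for 101 members in degradation, 100 in synthesis and 93 in processing. Among genes of fixed interest, Vamp2, Syt1, Vps4a, Atp6v1a, Atp6v0a1, Atp6v0c, Atp6ap1, Ap2m1, Ap2b1, Ap3d1 and Sec61a1 were not analysed here.

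Where all 4 degradation rates were present, members were mostly higher in the knockout than in wild type, as were all genes tested. Members that lacked a knockout rate are outside this comparison. Of the 13 with a single knockout rate, 12 lay below wild type. The median log2 change over the 101 members was 0.81 (0.69 at 20 min and 0.73 at 60 min), against 0.65 over 5716 genes, and 73 of the 101 changes were above 0. By limma on log2 rates, with Benjamini-Hochberg adjustment over all genes and a threshold of 0.05, 21 members rose and 0 fell, which is 20.8% of those tested. The background was 20.5% of all genes higher and 2.57% lower, 23.1% in all, so the share of members is near that of the table. In 42 members (41.6%) the unadjusted p was under 0.05, against 43.1% of all genes. With labelling time as a block, 40 members rose and 4 fell (background 38.2% and 9.76%), the latter Vps37a, Syt6, Snx2 and Vps29. With each library centred on its median, 0 passed (background 1.61%), 34.7% were at an unadjusted p under 0.05 (36.5% of all genes), and the median change was -0.051. With block and centring together 13 were called higher and 20 lower (background 13.9% and 22.4%), and after quantile normalization 5 and 1 (background 6.3% and 4.13%). A pseudocount gave 29 and 3 (background 28.9% and 4.27%). The authors' deposited table called 36 of 108 members higher and 5 lower (background 29.2% and 7.09%). In 59 members both knockout rates lay above both wild-type rates (52.6% of all genes) and in 11 both lay below (16.5%).

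**Figure D2:**
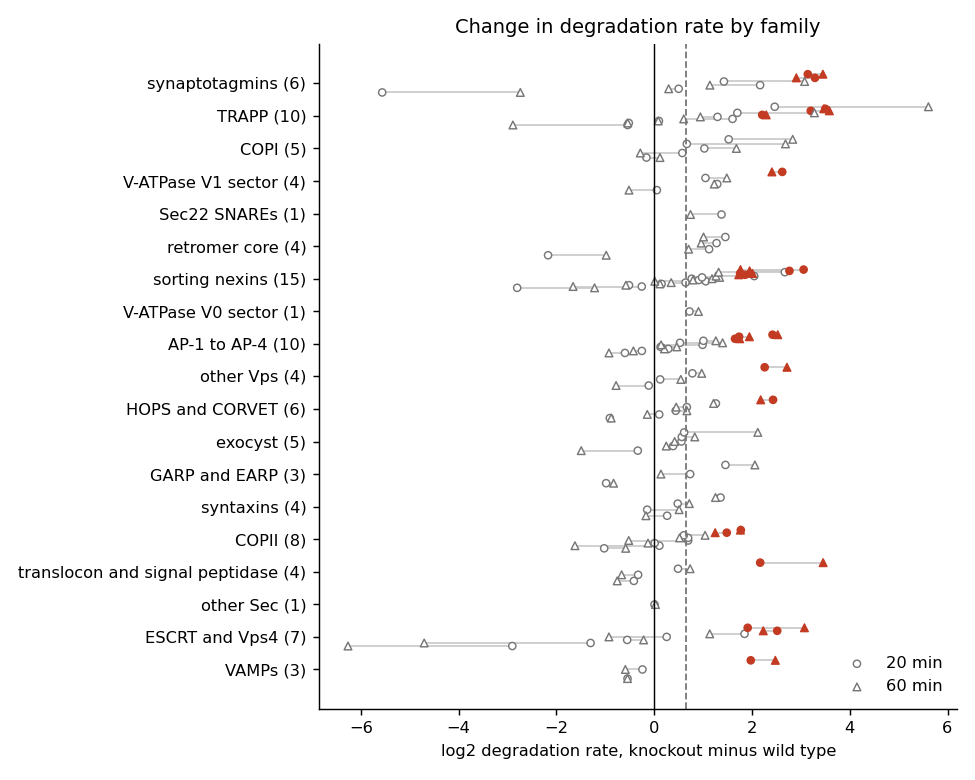
Log2 degradation rate, knockout minus wild type, at 20 min (circles) and 60 min (triangles) for the 101 members with all 4 rates, by family (number in parentheses), a grey line joining the times of a member; red marks the 21 that passed limma at an adjusted p of 0.05, and the dashed line is the median of all genes (0.65). The red points all lie to the right of 0, in 11 families.

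TRAPP subunits, which tether vesicles at the Golgi and act as exchange factors for Rab proteins, held both of the largest called rises. Trappc1 (chr11:69323980-69325793), a core subunit, was degraded at 0.0591 and 0.0491 in wild type and at 0.668 and 0.543 in the knockout. The change came to 3.48 on the log2 scale (SE 0.34, adjusted p = 0.0235, limma). Trappc2l (chr8:122611640-122616660), also a core subunit, went from 0.0508 and 0.0300 to 0.468 and 0.360 (3.39, SE 0.42, adjusted p = 0.0235, limma), and shares its span with the predicted gene Gm20388 on the same strand. Neither gene's groups overlapped. Trappc12 also passed (2.25), and the family median over 10 tested members was 1.69. With labelling time as a block 6 of the 10 rose, where 38.2% of all genes did. Trappc6a had the largest change of all members, 4.04, and did not pass without the block (SE 1.10; limma, adjusted p = 0.0634, and 0.0259 with the block). Its wild-type rates were far apart, at 0.223 and 0.0261, and its knockout rates were 1.23 and 1.27. The TRAPP II subunit gene Trappc9 had a log2 change of 2.49 (limma, adjusted p = 0.0641, and 0.0226 with the block) and Trappc11 of 1.12 (limma, adjusted p = 0.149, and 0.0393 with the block). Trappc3 and Trappc10 lay below 0, at -1.72 and -0.53, without passing. The knockout rates of Trappc3 were 0.0583 and 0.00913, and its change in the authors' deposited table was -0.54.

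The synaptotagmins split. Syt16 (chr12:73997661-74273267), a synaptotagmin that lacks the residues for binding calcium, rose from 0.0383 and 0.0302 to 0.338 and 0.330, a log2 change of 3.30 (SE 0.33, adjusted p = 0.0235, limma). Syt13 (chr2:92915098-92956058), also of the type that does not bind calcium, rose from 0.0361 and 0.0431 to 0.353 and 0.323 (3.10, SE 0.33, adjusted p = 0.0235, limma). Both were among the slowly degraded members in wild type, at the 3.64th and 5.86th percentile of all genes. Syt3 and Syt14 had values of 2.25 and 1.65 and passed with the block but not without it (adjusted p = 0.0291 and 0.0307 with the block, limma). Syt6 went the other way, from 0.167 and 0.170 to 0.00353 and 0.0255, a change of -4.15 (SE 1.02) with an adjusted p of 0.0524 by limma and of 0.0209 with labelling time as a block. Its change was -2.43 in the authors' deposited table.

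In the V-ATPase 5 genes could be tested. Atp6v1g1 (chr4:63544772-63550750), which encodes a G subunit of the peripheral stalk, had wild-type rates of 0.0651 and 0.0669, and knockout rates of 0.400 and 0.355. Its change of 2.51 passed (SE 0.32, adjusted p = 0.0235, limma). Atp6v1f and Atp6v1d, of the V1 rotor shaft, had log2 changes of 1.26 and 1.27, with adjusted p-values of 0.0537 and 0.106 by limma and of 0.0283 and 0.0320 with the block. Atp6v0e was at 0.81 and the regulated V1 subunit gene Atp6v1c1 at -0.23, and neither passed.

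**Figure D3:**
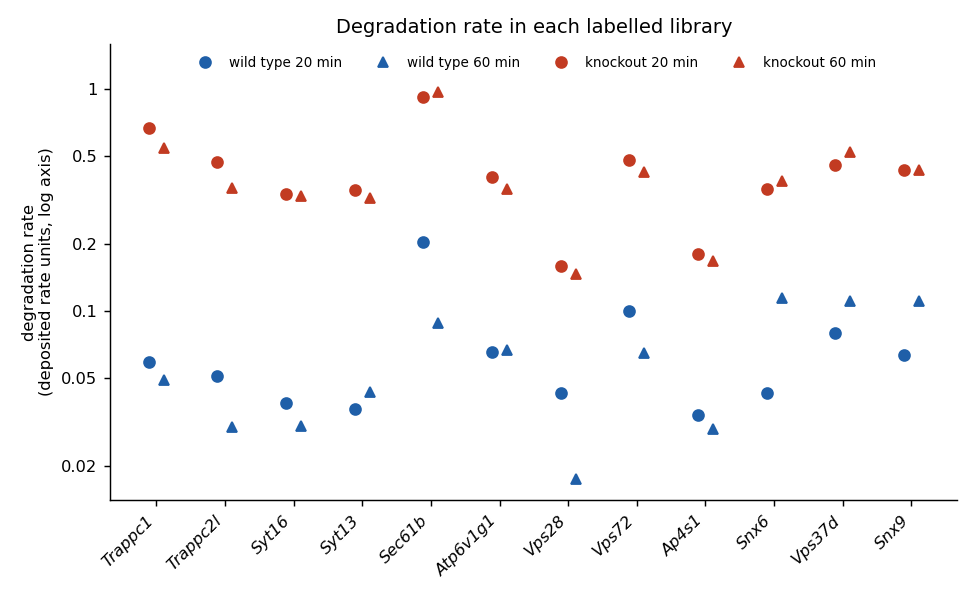
Degradation rate (deposited rate units, log axis) of the 12 members with the largest called rises in each labelled library, wild type in blue and knockout in red, circles for 20 min and triangles for 60 min. In each of the 12 both knockout rates lie above both wild-type rates; Sec61b reaches 0.920 and 0.968 in the knockout, and Snx6 spreads most within wild type as a ratio (0.0428 and 0.114).

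Coats and the translocon held 6 of the 21 called members, and 20.5% of all genes were called higher. Sec61b (chr4:47474658-47483242), the beta subunit of the translocon, rose from 0.205 and 0.0883 to 0.920 and 0.968 (2.81, SE 0.52, adjusted p = 0.0312, limma), while Sec62 and Sec63, which assist translocation after translation, were at -0.59 and -0.50 and did not pass. In COPII, which carries cargo out of the endoplasmic reticulum, the paralogues of the inner coat Sec23a and Sec23b passed with changes of 1.37 and 1.77. The outer coat genes did not: Sec31a was at 0.82 and Sec13 at -0.76, and the cargo adaptor gene Sec24d at 0.09. Of 5 tested COPI genes 0 passed (23.1% of all genes passed), with Copg1 at 2.18 and Cope at 1.68 (adjusted p = 0.0779 and 0.202, limma). With the block Copg1 (adjusted p = 0.0235) and Copg2 (adjusted p = 0.0330) passed as higher, by limma. Copa, the alpha subunit, was at -0.02. Among 10 adaptor subunits 3 passed as higher, Ap4s1, Ap3b1 and Ap1s1, where 20.5% of all genes did. The AP-4 small subunit gene Ap4s1 (chr12:51691033-51744786) rose from 0.0338 and 0.0293 to 0.181 and 0.169 (2.47, SE 0.32, adjusted p = 0.0235, limma), and it overlaps Strn3 on the opposite strand, whose reads cannot be told apart without strand.

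Changes of sorting nexin and retromer genes lay on both sides of 0, and those called without the block were all rises. Of 15 tested sorting nexins 4 rose, Snx6, Snx9, Snx8 and Snx19 (20.5% of all genes rose). With the block 7 rose and Snx2 fell (log2 change -2.01, adjusted p = 0.0343 with the block, limma). The all-gene shares with the block were 38.2% higher and 9.76% lower. Snx6 (chr12:54746349-54795703), a partner of retromer, was at 0.0428 and 0.114 in wild type and at 0.356 and 0.387 in the knockout (2.41, SE 0.57, adjusted p = 0.0495, limma). Snx9 (chr17:5841329-5931954), which acts with dynamin in endocytosis, was at 0.0634 and 0.111 and then at 0.431 in both knockout libraries (2.36, SE 0.42, adjusted p = 0.0290, limma). Snx27, which links retromer to receptors at synapses, was at 0.49 and did not pass. In the retromer core Vps35, Vps26a and Vps26b were at 0.91, 1.23 and 1.12 and Vps29 at -1.58, none past the threshold. With the block Vps26a (adjusted p = 0.0341) and Vps26b (adjusted p = 0.0387) passed as higher and Vps29 (adjusted p = 0.0396) as lower, by limma. Vps29 went from 0.0859 and 0.0564 to 0.0191 and 0.0286, and it overlaps Fam216a on the opposite strand.

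The ESCRT genes held members at both ends. Vps28 (chr15:76622087-76626086) rose from 0.0425 and 0.0175 to 0.160 and 0.147 (2.49, SE 0.54, adjusted p = 0.0414, limma), and Vps37d (chr5:135072900-135078266), also of ESCRT-I, rose from 0.0792 and 0.111 to 0.453 and 0.521 (2.37, SE 0.36, adjusted p = 0.0246, limma). Vps37a, a paralogue of Vps37d, had the lowest change of all members, -4.58 (SE 1.35; limma, adjusted p = 0.0736, and 0.0229 with the block), from 0.143 and 0.103 to 0.0191 and 0.00134. Its change was -2.90 at 20 min and -6.26 at 60 min and -2.75 in the authors' deposited table, and with a pseudocount the lowest change of any member was -1.90. It overlaps Cnot7 and Mtmr7 on the opposite strand. The 4 tested Vps37 paralogues thus ran from Vps37a at -4.58 through Vps37b at -0.39 and Vps37c at 1.49 (adjusted p = 0.0287 with the block, limma) to Vps37d. Among the tethers of lysosome fusion Vps39 rose by 2.30 (adjusted p = 0.0235, limma) while Vps11, a core subunit, was at -0.02 and Vps33a at -0.89. Vamp1 rose by 2.23 (adjusted p = 0.0435, limma), and Vamp3 and Vamp4 were at -0.55 and -0.42. Of 5 exocyst genes and 4 syntaxins 0 passed (23.1% of all genes passed), with Exoc7 at 1.37, Exoc4 at 0.70 and Stx12 at 1.31. Stx12 passed with the block (adjusted p = 0.0264, limma). The chromatin gene Vps72 (chr3:95111022-95123051) rose by 2.49 (SE 0.38, adjusted p = 0.0249, limma).

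The rates allowed the RNA level behind the knockout values to be examined. In the knockout libraries synthesis and degradation rate were not in a fixed ratio, but a straight line through the rates of a gene at 20 and 60 min gives a level (the difference in synthesis over the difference in degradation). For 100 members this solved level was positive. It followed the wild-type level closely, with a Spearman rho of 0.99 against 0.47 (20 min, 110 members) and 0.39 (60 min, 104 members) for the plain ratio of knockout synthesis to degradation. The median log2 difference of solved from wild-type level was -0.083 (-0.091 over all genes), 97 of 100 lay within 0.5, and 76 lay below 0. Solved and deposited values share the same rates, so the agreement is a description of how the table is built. The line does not pass through 0: its offset in synthesis was below 0 in 70 members and above 0 in 30, and it was below 0 in all 20 called members that could be solved. Whether this offset belongs to the rate model or to a shift between the estimates of the genotypes is not given in the sources used here, and the deposited knockout degradation changes carry it.

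When the knockout degradation rate was taken as synthesis over the solved level, the values were smaller. With a solved level this close to wild type, such a change largely restates the synthesis change by construction (rho 0.89 over 99 members), so it is no separate test of degradation. The median change over 99 members was 0.17 (0.07 over all genes), and 0 passed limma, against 0.0353% of all genes. Before adjustment 2.02% of members and 2.75% of all genes were below 0.05. Adding the block gave 0 calls, and 10.1% of members against 11.5% of all genes below 0.05 before adjustment. The 21 members called on the deposited rates had a median deposited change of 2.37. Of these, 20 could be solved, and the median change of the 20 over the solved level was 0.38. Of the 20, 17 stayed above 0 and 2 stayed above 1. These were Trappc2l, at 1.57, and Snx6, at 1.18. Ap4s1 and Atp6v1g1 were at 0.96 and 0.91, Trappc1 at 0.74, Sec61b at 0.59, Syt16 at 0.53, Syt13 at 0.41 and Vps72 at 0.05. Vps28, Vps37d and Trappc12 turned to -0.21, -0.08 and -0.31. The low values shrank as well, with Vps37a at 0.25, Syt6 at -0.25 and Vps29 at -0.30. In the called members the solved level was below wild type in 19 of 20, with a median of -0.28 and a lowest value of -0.77 for Sec61b. Which of these treatments is nearer to the cells was not tested.

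**Figure D4:**
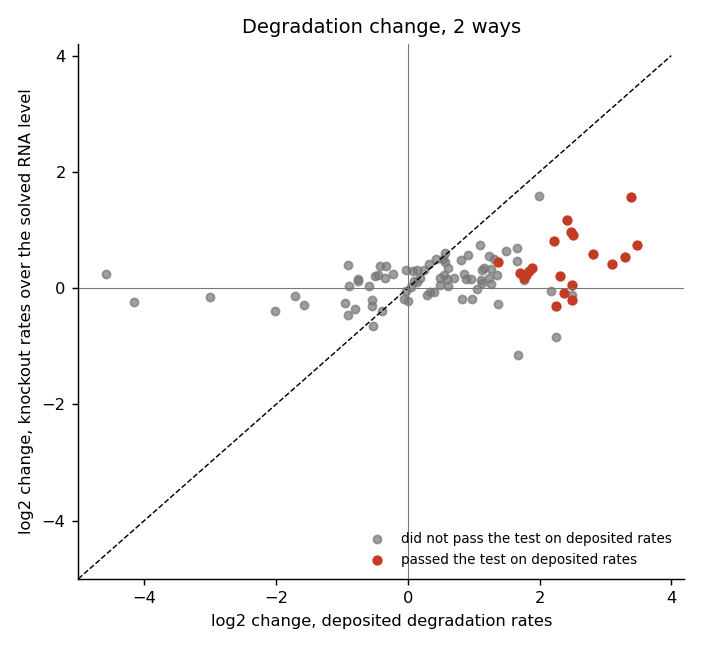
Log2 change in degradation rate, knockout minus wild type, from the deposited rates (x axis) and from knockout synthesis over the solved RNA level (y axis) for the 99 members with both; red marks members that passed limma on the deposited rates and the dashed line is equality. Points lie along the horizontal axis rather than the dashed line: the median is 0.17 on the y axis, and the extremes Vps37a (-4.58) and Trappc1 (3.48) are at 0.25 and 0.74.

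Synthesis rates showed no called change. Of 100 members 0 passed limma and 0 had an unadjusted p under 0.05 (background 0% of 5794 genes called, 0.311% at the unadjusted level), and the block gave 0 calls and 6 unadjusted p-values under 0.05 (6%, against 4.59% of all genes). The authors' deposited table called 0 of its 113 members. The median change was 0.09 (-0.026 over all genes), at 0.20 at 20 min and -0.014 at 60 min (0.038 and -0.083 over all genes). It was above 0 in 59 members (59%, against 46.6% of all genes). Changes ran from -1.32 to 1.39. In the 21 members with called degradation the median synthesis change was 0.07, and 14 were above 0. Trappc1 was made at 1.03 and 0.857 in wild-type libraries, and 2.004 and 0.548 in knockout libraries, and Syt16 at 1.02 and 0.808 against 1.02 and 0.871. For each of these genes the groups overlap. Trappc2l (1.26 and 0.743 against 3.46 and 1.40) and Atp6v1g1 (1.55 and 1.59 against 2.77 and 1.93) were higher in both knockout libraries, without passing.

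Processing rates were lower in the knockout on the whole. The median log2 change over 93 members was -0.41, against -0.36 over 5082 genes, and 72 of the 93 were below 0. With each library centred on its median, the median over members was -0.064 and 51 of the 93 were below 0. By limma 0 passed (background 0%), and 13 p-values (14.0%) were under 0.05 before adjustment, against 15.4% of all genes. A block for labelling time let 20 members pass as lower (21.5%, background 19.3%) and 2 as higher (2.15%, background 6.26%). With block and centring together 5 fell and 2 rose (background 6.4% and 7.14%).

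The largest falls in the limma fit were in a retromer, a COPI and a Sec1/Munc18 family gene (Vps33b). Vps29, the retromer subunit, was processed at 3.46 and 2.27 in wild type and at 0.216 and 0.368 in the knockout. The change came to -3.31 on the log2 scale (SE 0.49; limma, adjusted p = 0.102, and 0.0102 with the block). Cope, the epsilon subunit of COPI, went from 18.7 and 3.83 to 2.45 and 0.325 (-3.24, SE 1.19, adjusted p = 0.289 by limma and 0.00803 with the block). Both genotypes had the higher rate at 20 min, and the groups did not overlap. Vps33b went from 35.9 and 24.8 to 7.26 and 2.72 (-2.75, SE 0.60, adjusted p = 0.156 by limma and 0.00956 with the block). On the other side stood Syt3, a calcium-binding synaptotagmin, with 11.7 and 3.07 in wild-type libraries, and 59.9 and 19.3 in knockout libraries (2.50, SE 0.86, adjusted p = 0.266 by limma and 0.00865 with the block). Snx24 was at 2.27 and 5.58 and then at 10.1 and 9.52 (1.46, SE 0.56, adjusted p = 0.306 by limma and 0.0495 with the block). In the authors' deposited table, where 0 members passed, the processing change was -2.10 for Cope, -2.74 for Vps33b, 1.53 for Syt3 and 1.46 for Snx24. That table gave no processing change for Vps29. Others that fell with the block included Exoc7, Snx11, Snx16, Sec13, Vamp4, Trappc12, Vps4b and Vps28.

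**Figure D5:**
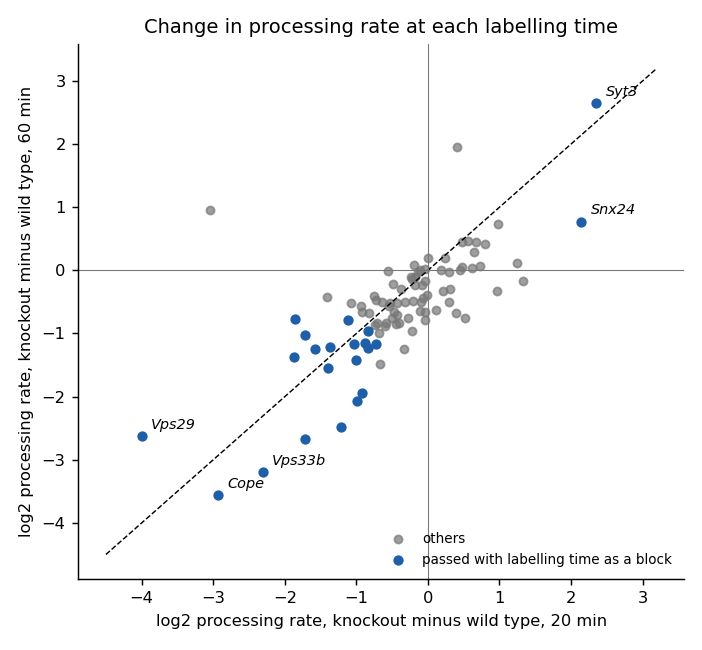
Log2 processing rate, knockout minus wild type, at 20 min (x axis) and 60 min (y axis) for the 93 members with all 4 rates; blue marks the 22 that passed limma with the block for labelling time, and the dashed line is equality. Most points lie below and left of 0 (median -0.41), with Vps29, Cope and Vps33b lowest and Syt3 highest.

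Partner genes of the same pathways that the symbols do not catch were counted in the same fits. Of 102 such genes (among them SNAP and NSF genes, clathrin, dynamins, Arf and Sar GTPases, the COG complex, CHMP proteins and regulators of the V-ATPase) 70 were in the table. Of the 47 tested for degradation 9 rose (19.1%, against 20.5% of all genes) and 1 fell (2.13% against 2.57%) by limma, with a median change of 0.80. With the block 16 rose (34% against 38.2%) and 5 fell (10.6% against 9.76%). Their wild-type median degradation rate was 0.0979. In processing 0 of 42 passed, and with the block 8 fell (19% against 19.3%) and 1 rose (2.38% against 6.26%), with a median change of -0.53.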

How the data were processed

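Members and gene lists were chosen with earlier results of these data known. Per the submitters' processing notes, the tools named are cutadapt, Bowtie2, TopHat2, HISAT2 and limma and the builds mm10, dm6 and sacCer3; their versions and roles are not given in the sources used here. The rates are a deposited signal table of linear INSPEcT values made by the authors, and no per-sample column was left unused (0). Spike-ins (10% by weight each) were added per the labels. The authors' deposited tables of knockout against wild type hold, per the file headers, log2 changes and mean log2 rates, p-values with adjusted p-values, and score columns (moderated statistic and log odds) that were not used.

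For each rate, log2 values of genes with a rate above 0 in all 4 libraries were compared with limma 3.58.1 (R 4.3.3; lmFit, eBayes, two-sided, Benjamini-Hochberg over all genes tested), without a block, at a threshold of 0.05. The code was tested on simulated data. The labelling times pair the libraries per the labels, and a fit with labelling time as a block is printed where it changes the call of a member whose change is described. Across members, the 60 min minus 20 min differences of wild type and knockout had Spearman rho of 0.62 for degradation, 0.77 for synthesis and 0.69 for processing. Alternatives were centring, quantile normalization, a filter at the 25th percentile of mean rates, a pseudocount at the 10th percentile (0.0431 for degradation, 0.306 for synthesis, 1.93 for processing), eBayes with trend, a threshold of 0.01, the authors' table, the solved RNA level and leaving out each library.

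Named were the 12 largest called changes in degradation per direction that had the same sign at both times, the 3 largest per direction with an unadjusted p under 0.05 for the other rates, the 5 highest and 5 lowest per rate in wild type, and 34 genes of fixed role, of which 22 were in the table; others were named after their values were seen. Gene models are GENCODE M21 (GRCm38), using per gene the transcript with the longest coding sequence.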

Additional observations from a re-analysis of the deposited data

Results flagged for a closer look

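A few values pointed in opposite directions at the 2 labelling times, the knockout lying above wild type at one and below at the other. With 1 library per genotype and time these differences were not tested. The median synthesis change over the members was 0.20 at 20 min and -0.014 at 60 min, a difference of -0.22; over all genes the median was 0.038 and -0.083. In degradation rate, the change of Copa differed by 0.28 between the times (-0.16 at 20 min and 0.12 at 60 min), that of Sec13 by -1.73 (0.11 and -1.62), that of Sec24d by -1.22 (0.69 and -0.52) and that of Vps11 by -0.24 (0.10 and -0.14). Of the 101 members with all 4 degradation rates, 90 had the same sign at both times.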

How the results depend on the processing

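The 21 called members in degradation rate (all higher) became 44 with labelling time as a replicate block (40 higher, 4 lower; all 21 among them), 0 with centring, 6 with quantile normalization, 33 with the replicate block and centring (13 higher, 20 lower), 32 with a pseudocount (29 higher, 3 lower), 41 in the authors' deposited table (36 higher, 5 lower), 0 at a threshold of 0.01, and 0 over the solved level with or without the block. Leaving out 1 library gave 0 to 19 calls: 0 without the wild-type 60 min library, 19 without the wild-type 20 min library, 1 without the knockout 60 min library and 2 without the knockout 20 min library. These 3 calls were all lower and 0 of the 21 were among them, and 14 of the 21 were among the 19. Over the 5716 genes the same settings gave 0 higher and 1 lower, 1050 and 62, 57 and 72, and 62 and 88; the lone library is then assumed to vary like the other genotype. The median degradation change of 0.81 was -0.051 with centring, 0.097 with quantile normalization, 1.12 without low rates, 0.53 with a pseudocount, 0.17 over the solved level, 0.70 on the deposited rates of genes with a solved level, 0.60 in the authors' deposited table, and 0.60 to 0.97 leaving out 1 library. The median synthesis change ranged from -0.075 to 0.28 leaving out 1 library. Calls in processing went from 0 to 22 with the replicate block, to 7 with block and centring, and to 0 to 3 leaving out 1 library; its median was -0.064 with centring, -0.077 with quantile normalization and -0.60 to -0.23 leaving out 1 library. The cause was not tested.

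With centring 25 of the 101 degradation changes turned in sign, and over the solved level 27 of 99. Among the members named for a called change in degradation or for a fixed role, those that turned were, with centring (with or without the block), Exoc4 to -0.16, Sec24d to -0.77, Sec31a to -0.034 and Snx27 to -0.36; with quantile normalization, Sec24d to -0.58 and Snx27 to -0.15; in the authors' deposited table, Copa to 0.034 and Vps11 to 0.0035. Over the solved level (with or without the block) Copg1 turned to -0.045, Exoc7 to -0.28, Sec13 to 0.12, Sec31a to -0.19, Sec63 to 0.20, Trappc9 to -0.12, Vps11 to 0.31, Vps28 to -0.21 and Vps37d to -0.084. Leaving out 1 library gave -1.002 to 0.96 for Copa, -1.70 to 0.19 for Sec13, -0.80 to 0.97 for Sec24d and -0.084 to 0.045 for Vps11. With 2 libraries per genotype that differ in labelling time, unknown depth and missing knockout rates, small changes are not resolved.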
